A study of Mus musculus with 12 samples.

Results

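Cathepsins and legumain are proteases of the lysosome and the endosome. The genes described here are Ctsa, Ctsb, Ctsc, Ctsd, Ctse, Ctsh, Ctsl, Ctss, Ctsz and Lgmn, taken by symbol, 10 of the 21983 genes of the deposited count table. Their RNA was measured by bulk RNA sequencing of whole brains from wild type C57BL/6 mice that the labels give as 6 weeks old. The control group is normal mice. The second group is mice with experimental cerebral malaria (ECM), a mouse model of the brain disease of severe malaria, and the third is ECM mice given artesunate, an antimalarial drug, with a time of 4 days in the labels. Each group has 4 libraries, written here as control 1 to 4, ECM 1 to 4 and treated ECM 1 to 4. The labels used here name no parasite strain, dose or route, no day of infection for the ECM brains, and no perfusion, so blood left in the vessels may be part of each sample. They do not say whether each library came from a separate animal, so p-values measure the spread between these libraries, which may be technical.

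Most cathepsins are cysteine proteases that are made as inactive precursors and activated at the low pH of endosomes and lysosomes. CTSB and CTSL cut proteins in the middle, CTSB and CTSZ also trim carboxyl ends, and CTSC and CTSH trim amino ends. CTSS stays active near neutral pH and cuts the invariant chain during antigen presentation by MHC class II. Legumain is a cysteine protease of another family that cuts after asparagine and also processes cathepsin precursors. CTSD and CTSE are aspartic proteases, and CTSA is a serine carboxypeptidase that also protects 2 other lysosomal enzymes, beta-galactosidase and neuraminidase. In the brain, microglia and infiltrating macrophages are rich in several of these enzymes, whereas CTSB and CTSD are made by neurons too.

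Totals ran from 13342177 to 18886822 reads in genes per library. Control 4, ECM 2 and ECM 3 stood apart, with 10.7%, 15.2% and 13.2% of their reads in mitochondrial genes against 4.74% to 7.89% in the other libraries. The rank correlation between a gene's GC content and its level relative to the other libraries was also lowest in these libraries, at -0.695, -0.326 and -0.503, and was 0.434 to 0.557 in the treated ECM libraries. Results are also given without these 3 libraries where that changes a call. Levels are CPM (reads of the gene per 1000000 reads of the library) after TMM scaling. Each difference is a log2 fold change ± SE, with the fold change from edgeR's quasi-likelihood test. That test gives no SE. It was derived as the size of the log2 fold change divided by the square root of the test's F statistic. A gene is said to have risen or fallen where its Benjamini-Hochberg adjusted p over all 14601 tested genes was below 0.05. In whole tissue, more cells of a type and more RNA per cell cannot be told apart. No batch is named in the labels.

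In ECM brains, 7 of the 10 genes rose against control (Ctsc, Ctse, Ctsh, Ctsl, Ctss, Ctsz and Lgmn) and 0 fell. Over all tested genes, 7.29% were called higher and 2.9% lower. All 10 passed the filter on low counts, and their median log2 fold change was 1.02, beside 0.0 over all tested genes. In 9 of the 10, every ECM library was above every control library, an arrangement found in 9.18% of the genes with all libraries usable (the reverse in 5.3%). Without control 4, ECM 2 and ECM 3 the number that rose was again 7, beside 1549 of all 14810 genes tested there. At an unadjusted p below 0.05, 8 were higher and 0 lower, and DESeq2 gave 8 and 0. Over all 21940 genes, DESeq2 called 1410 higher and 672 lower. For counts at an unadjusted p, here and below, no share over all genes is given.

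After treatment, 6 of the 10 fell against ECM (Ctsc, Ctse, Ctsl, Ctss, Ctsz and Lgmn) and 0 rose, beside 5.67% of all tested genes called lower and 3.03% called higher. Their median log2 fold change was -0.87, beside -0.011 over all tested genes. All treated ECM libraries were below all ECM libraries for 8 of the 10, an arrangement found in 11.4% of genes (the reverse in 10.4%). At an unadjusted p below 0.05, 8 were lower and 0 higher. DESeq2 gave 6 and 0, beside 1346 lower and 795 higher of all 21940 genes. Without control 4, ECM 2 and ECM 3, 8 fell, beside 1228 of all 14810 genes tested there. Against control, 0 of the 10 were called in treated ECM by edgeR, beside 1.97% of genes called higher and 0.0548% called lower. At an unadjusted p below 0.05, 4 were higher and 0 lower. DESeq2 called 1 higher, beside 431 higher of all 21940 genes. Without the 3 libraries that stood apart 2 were called higher, beside 425 of all 14810 genes tested. The median of the 10 there was 0.32, or 0.3 with Ctse at its bound. The ECM libraries enter both of the first 2 comparisons, and the control and treated ECM libraries enter 2 each, so these counts are not independent of each other.

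**Figure D1:**
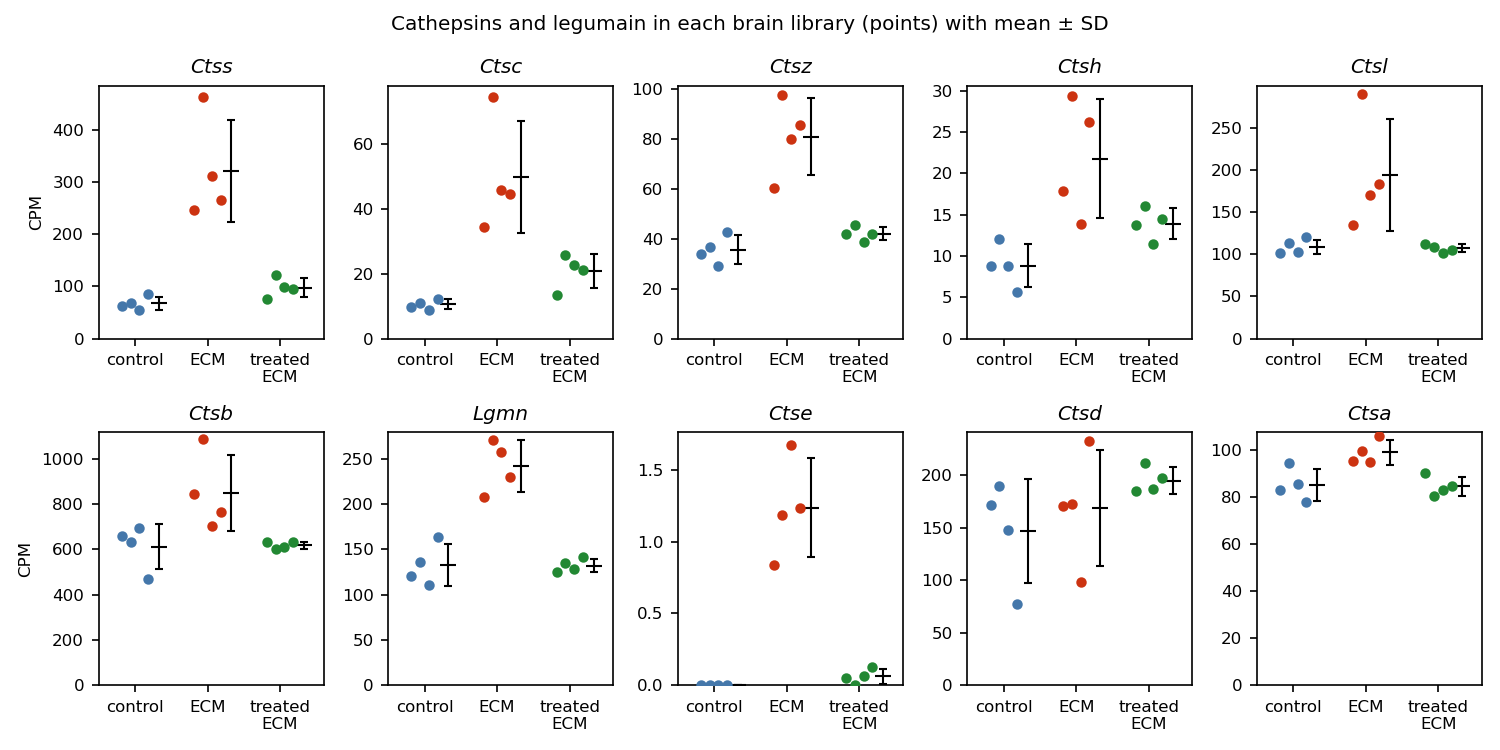
CPM (vertical axes, each from 0) of the 10 genes in the 4 libraries of each group, with points for libraries 1 to 4 from left to right and the bar for mean ± SD (n = 4). Ctss lay between 247 and 464 CPM in ECM, above all control and treated ECM libraries, while Ctsd overlapped in all groups.

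The summed level of the 10 genes was 1210 ± 108 CPM in control (SD, n = 4), 2029 ± 377 CPM in ECM and 1312 ± 32.9 CPM in treated ECM. Individual sums ran from 1051 to 1292 CPM in control, from 1777 to 2585 CPM in ECM and from 1280 to 1346 CPM in treated ECM, so that the ECM brains stood above all others. ECM 2 was the highest of the ECM libraries for 7 of the 10 genes. It was also the ECM library with the most monocyte and macrophage marker RNA (368 CPM against 150, 195 and 224 CPM in ECM 1, 3 and 4) and the most T and NK cell marker RNA (43.6 CPM against 21.9 to 27.8 CPM). ECM 2 also had the highest mitochondrial share (15.2%, with 13.2% in ECM 3) and the most cerebellar marker RNA (1856 CPM against 156, 134 and 557 CPM in ECM 1, 3 and 4). The part of these cells, of the mitochondrial share and of the cerebellar RNA in the cathepsin levels was not tested.

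Cathepsin S, the cysteine protease that trims the invariant chain, and cathepsin C had the largest fold changes in ECM of the 10 genes after Ctse, and the 2 cannot be ranked against each other. Ctss stood at 61.9, 69.0, 55.5 and 84.5 CPM in control 1 to 4, at 247, 464, 311 and 266 CPM in ECM 1 to 4 and at 75.8, 122, 99.0 and 94.6 CPM in treated ECM 1 to 4. Every ECM library was above every other library. The treated ECM range overlapped that of control through control 4 alone, which stood apart. Ctss was 4.76-fold higher in ECM than in control (log2 fold change 2.25 ± 0.23, adjusted p = 2.06e-05) and fell 3.29-fold in treated ECM against ECM (-1.72 ± 0.22, adjusted p = 0.000934). Treated ECM against control gave 0.53 ± 0.22, which was not called (adjusted p = 0.392), but it was without control 4, ECM 2 and ECM 3 (0.66, adjusted p = 0.0351). Among the reads of the 10 genes, Ctss took 5.7% ± 1.6 in control, 15.7% ± 2.35 in ECM and 7.44% ± 1.31 in treated ECM (SD, n = 4), with no overlap between ECM (13.6% to 17.9%) and the other groups (4.46% to 9.03%).

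Cathepsin C, also called dipeptidyl peptidase 1, activates the granzymes and other granule proteases by removing an amino-terminal dipeptide. Ctsc stood at 9.80, 11.1, 8.96 and 12.3 CPM in control 1 to 4, at 34.3, 74.7, 45.8 and 44.7 CPM in ECM 1 to 4 and at 13.5, 25.9, 22.7 and 21.3 CPM in treated ECM 1 to 4. The 3 groups did not overlap. Ctsc was 4.72-fold higher in ECM than in control (2.24 ± 0.26, adjusted p = 6.27e-05) and fell 2.39-fold with treatment (-1.26 ± 0.25, adjusted p = 0.00927). It was the only one of the 10 genes with all treated ECM libraries above all control libraries, an arrangement found in 10.6% of genes (the reverse in 8.27%). With control 4 set aside, the treated ECM libraries of Ctss and Ctsz were above the remaining controls too. The difference of Ctsc between treated ECM and control, 0.98 ± 0.25, was not called (adjusted p = 0.0782). It was called by DESeq2 (0.97, adjusted p = 0.0168), without control 4, ECM 2 and ECM 3 (1.06, 0.02), with a GC correction (1.22, 0.00751), without ECM 2 alone (0.98, 0.0261) and without treated ECM 1 alone (1.14, 0.0273).

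Cathepsin Z is a carboxypeptidase. Ctsz stood at 33.7, 36.7, 29.1 and 42.7 CPM in control 1 to 4, at 60.2, 97.7, 80.0 and 85.5 CPM in ECM 1 to 4 and at 41.9, 45.4, 38.7 and 41.9 CPM in treated ECM 1 to 4. The ECM libraries were above all others, and the treated ECM values lay within or just above the control range. Of the control libraries, only control 4, which stood apart, reached the treated ECM values. Ctsz was 2.27-fold higher in ECM than in control (1.18 ± 0.17, adjusted p = 0.000355) and 1.93-fold lower in treated ECM than in ECM (-0.95 ± 0.17, adjusted p = 0.00499).

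Ctss, Ctsc and Ctsz are the genes with at least a 2-fold rise in ECM for which the RefSeq promoter table (GRCm38.p6) held an entry; the table had entries for 7 of the 10 genes. The 250 bases before their starts are shown, chosen by the size of the rise. Ctsl and Lgmn also rose in ECM and fell after treatment, but rose by less than 2-fold. Their matches are given below without their bases. Capitals mark matches, on either strand, to 5 motifs: the interferon-stimulated response element (ISRE, written as GAAA, any 2 bases and GAAA), the gamma-activated site (GAS, TTCNNNGAA), the E-box CACGTG, the CLEAR element of lysosomal genes (the E-box with GT before it and AC after it, so that each match is also an E-box match) and a PU.1 core (GAGGAAGT).
Ctss, chr3:95526536-95526785, + strand: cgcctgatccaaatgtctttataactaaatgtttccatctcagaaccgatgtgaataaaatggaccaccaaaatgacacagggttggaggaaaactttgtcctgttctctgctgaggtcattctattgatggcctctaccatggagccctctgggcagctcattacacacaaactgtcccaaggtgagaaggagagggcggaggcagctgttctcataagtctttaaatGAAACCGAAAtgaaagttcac
Ctsc, chr7:88277835-88278084, + strand: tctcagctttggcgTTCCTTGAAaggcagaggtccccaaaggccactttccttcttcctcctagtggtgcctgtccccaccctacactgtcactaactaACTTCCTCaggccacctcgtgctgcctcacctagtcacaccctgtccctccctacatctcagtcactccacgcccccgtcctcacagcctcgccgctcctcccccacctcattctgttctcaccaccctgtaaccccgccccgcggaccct
Ctsz, chr2:174439040-174439289, - strand: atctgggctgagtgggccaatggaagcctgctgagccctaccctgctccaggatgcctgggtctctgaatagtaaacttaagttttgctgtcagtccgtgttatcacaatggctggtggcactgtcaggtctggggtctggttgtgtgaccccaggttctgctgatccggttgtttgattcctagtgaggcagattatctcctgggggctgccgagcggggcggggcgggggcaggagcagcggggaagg

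The Ctss window held 1 ISRE match, GAAACCGAAA, beginning at position -21 from the start. In Ctsc, a GAS match, TTCCTTGAA, began at -236 and a PU.1 core on the other strand, ACTTCCTC, at -151. The Ctsz window held none of the 5 motifs. Among 32851 promoter windows of the same length, 2.98% held the ISRE, 7.02% the GAS, 2.44% the PU.1 core, 6.02% the E-box and 0.24% the CLEAR element. The E-box was present in the windows of Ctsd (at -245 and -98) and Ctsl (at -236), and in 1 of the 2 windows each of Ctsa (-12) and Lgmn (-49). By the GENCODE M21 coordinates, these windows of Ctsa, Ctsl and Lgmn lie wholly inside the gene, downstream of its outermost start. The other window of Ctsa and that of Lgmn held none of the motifs. No window of the 7 genes held an exact match to the letters taken for the CLEAR element. Near matches to it were not searched, so sites that vary from these letters were not counted. A match describes letters in the window and not a bound site.

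Cathepsin H, an aminopeptidase, rose in ECM but was not called after treatment. Ctsh stood at 8.83, 12, 8.81 and 5.63 CPM in control 1 to 4, at 17.9, 29.4, 13.9 and 26.2 CPM in ECM 1 to 4 and at 13.7, 16.0, 11.4 and 14.5 CPM in treated ECM 1 to 4. ECM 3, at 13.9 CPM, lay inside the treated ECM range. Ctsh was 2.47-fold higher in ECM than in control (1.31 ± 0.27, adjusted p = 0.0063). The difference between treated ECM and ECM, -0.65 ± 0.26, was not called (adjusted p = 0.14), and without control 4, ECM 2 and ECM 3 it was (-0.66, adjusted p = 0.0445). Treated ECM against control gave 0.65 ± 0.27 (adjusted p = 0.387).

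Cathepsin L, an endopeptidase of most cells, rose by less than 2-fold. Ctsl stood at 102, 113, 103 and 120 CPM in control 1 to 4, at 135, 290, 170 and 183 CPM in ECM 1 to 4 and at 112, 109, 101 and 105 CPM in treated ECM 1 to 4. ECM 2 was far above the other ECM libraries, yet even ECM 1 was above all control and treated ECM libraries. Ctsl was 1.78-fold higher in ECM than in control (0.83 ± 0.2, adjusted p = 0.0151) and 1.82-fold lower after treatment (-0.86 ± 0.2, adjusted p = 0.018). Both calls were near the threshold. The first was lost in a fit of only the 2 groups (adjusted p = 0.0825), without control 1 (0.0554) and without control 3 (0.0591), and the second without any 1 treated ECM library (0.0522 to 0.0631).

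Cathepsin B, an endopeptidase that also acts as a carboxypeptidase, held the most reads of the 10 genes and was not called in any comparison. Ctsb stood at 658, 630, 695 and 467 CPM in control 1 to 4, at 846, 1085, 703 and 763 CPM in ECM 1 to 4 and at 631, 602, 609 and 632 CPM in treated ECM 1 to 4. All ECM libraries were above all others, ECM 3 only just. The log2 fold change was 0.47 ± 0.17 in ECM against control (adjusted p = 0.0988), -0.46 ± 0.17 in treated ECM against ECM (adjusted p = 0.103) and 0.01 ± 0.17 in treated ECM against control (adjusted p = 0.977). The first was called by DESeq2 (adjusted p = 0.0494) and with the GC correction (0.0477), the second with the GC correction (0.0435) and without control 4, ECM 2 and ECM 3 (0.0162). Ctsb held 50.4% ± 4.91 of the reads of the 10 genes in control, 41.9% ± 3.38 in ECM and 47.2% ± 1.79 in treated ECM (SD, n = 4), a share not adjusted for gene length.

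Legumain rose in ECM and fell after treatment. Lgmn stood at 120, 136, 111 and 164 CPM in control 1 to 4, at 208, 271, 258 and 230 CPM in ECM 1 to 4 and at 125, 135, 128 and 142 CPM in treated ECM 1 to 4. The ECM libraries were above all others, and all treated ECM values fell inside the control range, that of treated ECM 4 only through control 4. Lgmn was 1.82-fold higher in ECM than in control (0.86 ± 0.15, adjusted p = 0.00189) and 1.82-fold lower in treated ECM than in ECM (-0.87 ± 0.15, adjusted p = 0.00449). Treated ECM against control gave -0.01 ± 0.15 (adjusted p = 0.991). Both calls of Lgmn, and those of Ctsc, Ctse, Ctss and Ctsz in the same 2 comparisons, held in each of the 19 alternative analyses.

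Cathepsin E, an aspartic protease made by some blood and immune cells, was nearly absent outside ECM. Ctse had 0 reads in each control library, 11, 15, 21 and 24 reads (0.838, 1.19, 1.68 and 1.24 CPM) in ECM 1 to 4, and 4 reads over the 4 treated ECM libraries, with 0.0522, 0, 0.0635 and 0.127 CPM in treated ECM 1 to 4. ECM was at least 26.0-fold higher than control, taking 3 reads over the control group as the limit that a count of 0 allows (adjusted p = 0.000271), and treated ECM fell by 4.17 ± 0.6 on the log2 scale against ECM (adjusted p = 0.00345). Treated ECM against control was not called (adjusted p = 0.375). These levels are the lowest of the 10 genes, and the limit covers counting error only.

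Cathepsin D, the main aspartic protease of lysosomes, showed no called change. Ctsd stood at 172, 190, 148 and 77.0 CPM in control 1 to 4, at 171, 173, 98.5 and 233 CPM in ECM 1 to 4 and at 185, 212, 187 and 197 CPM in treated ECM 1 to 4. All groups overlapped, and the lowest values were in control 4 and ECM 3. The log2 fold change was 0.2 ± 0.27 in ECM against control (adjusted p = 0.736), 0.21 ± 0.27 in treated ECM against ECM (adjusted p = 0.661) and 0.41 ± 0.27 in treated ECM against control (adjusted p = 0.539). With the GC correction the 3 differences were 0.19, 0.04 and 0.23, none called (adjusted p = 0.514, 0.902 and 0.748).

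Cathepsin A, the serine carboxypeptidase, was not called in any comparison. Ctsa stood at 82.9, 94.4, 85.4 and 77.7 CPM in control 1 to 4, at 95.1, 99.7, 95 and 106 CPM in ECM 1 to 4 and at 90.0, 80.3, 82.8 and 84.8 CPM in treated ECM 1 to 4. The ECM libraries were above all others by a small margin. The log2 fold change was 0.22 ± 0.12 in ECM against control (adjusted p = 0.298), -0.23 ± 0.12 in treated ECM against ECM (adjusted p = 0.23) and -0.01 ± 0.12 in treated ECM against control (adjusted p = 0.976). With the GC correction, treated ECM against ECM gave -0.49 and was called (adjusted p = 0.0472).

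**Figure D2:**
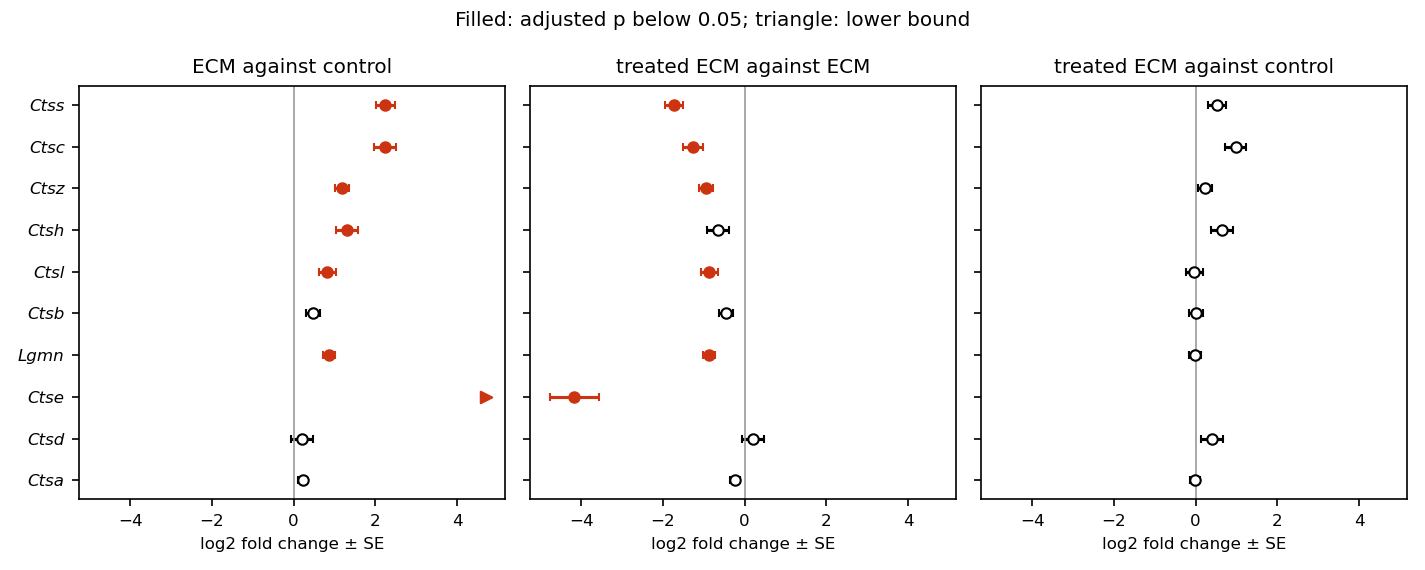
Log2 fold change ± SE (horizontal axis) of the 10 genes in each of the 3 comparisons, with filled symbols for an adjusted p below 0.05. The triangle is the lower bound of 26.0-fold for Ctse in ECM against control, and Ctse is left out of treated ECM against control; the genes lie right of 0 in the left panel, mostly left of 0 in the middle panel and near 0 or right of it in the right panel.

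For the order of the genes, levels were taken per kilobase of the principal transcript. Where transcripts tied as principal, the longest was taken. Ctsl, at 6168 bases, and Ctsb, at 4743 bases, had the longest of these lengths. Overlap here is between the ranges of neighbouring genes over the libraries of a group, and not within a library. In control, Ctsb was first at 129 ± 21.2 CPM per kb (SD, n = 4), above all libraries of the next gene. Ctsd (69.1 ± 23.4), Lgmn (66.8 ± 11.7) and Ctss (50.0 ± 9.19) followed and overlapped with their neighbours, then Ctsz (24.7 ± 3.95) and Ctsa (23.3 ± 1.92), which also overlapped, Ctsl (17.7 ± 1.35), and the overlapping pair Ctsh (5.46 ± 1.62) and Ctsc (4.23 ± 0.595). In ECM, Ctss was first at 238 ± 72.4 CPM per kb, and its range overlapped that of Ctsb at 179 ± 35.4. Within each ECM library Ctss was the higher. It stood at 182, 342, 230 and 196 CPM per kb in ECM 1 to 4, against 178, 229, 148 and 161 for Ctsb. Lgmn came next at 121 ± 14.3, with no library reaching Ctsb, and its libraries overlapped those of Ctsd (79.5 ± 25.9). Ctsc now overlapped Ctsa, and Ctse reached 0.582 ± 0.163. In treated ECM, Ctsb was again first at 130 ± 3.28, followed by Ctsd (91.8 ± 5.91) and Ctss (72.1 ± 13.9), which overlapped each other. With the length of all exons in place of the principal transcript, Ctss in ECM (237 ± 72.2) lay above all libraries of Ctsb (140 ± 27.8). With that length the range of Ctsb also overlapped that of Ctsd in control and of Lgmn in ECM, but within each of those libraries Ctsb was the higher. Ctsz in control and Ctsc in ECM no longer overlapped Ctsa. By mean, the order in control and in ECM was the same with both lengths. In treated ECM, Ctsc (3.59 ± 0.906) came just before Ctsh (3.09 ± 0.423) with all exons, and just after it with the principal transcript.

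For the lists below, the shares of all tested genes called by edgeR in ECM against control were 7.29% higher and 2.9% lower. They were 3.03% and 5.67% in treated ECM against ECM, and 1.97% and 0.0548% in treated ECM against control. A list of 6 further cathepsin genes was looked up, of which Ctsg and Ctsll3 did not pass the filter on low counts. Of the 4 tested, Ctso and Ctsw rose in ECM against control and 0 fell (median 0.64; by DESeq2 and at an unadjusted p below 0.05, 2 were higher and 0 lower). Ctso fell after treatment (median -0.62). In treated ECM against control, 0 were called by edgeR and 1 by DESeq2, with 1 higher at an unadjusted p below 0.05 (median 0.2). Ctso, a cysteine cathepsin, went from 43.7 ± 3.72 CPM in control to 77.1 ± 28.2 CPM in ECM (0.82 ± 0.2, adjusted p = 0.0196) and 42.3 ± 2.41 CPM in treated ECM (-0.87 ± 0.2, adjusted p = 0.0207). Each of these calls was lost in 5 of the 19 alternatives, with adjusted p-values of up to 0.0935 and 0.0749. Ctsw, a cathepsin of cytotoxic lymphocytes, went from 0.13 ± 0.138 CPM in control to 2.91 ± 1.66 CPM in ECM (4.32 ± 0.73, adjusted p = 0.00142) and 0.798 ± 0.443 CPM in treated ECM (-1.87 ± 0.59 against ECM, adjusted p = 0.0657, with values of 0.0197 to 0.178 over the alternatives). Ctsf (54.2, 60.6 and 67.7 CPM in control, ECM and treated ECM) and Ctsk (3.4, 4.67 and 3.61 CPM), the collagen-cutting cathepsin of osteoclasts, were not called.

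Among 11 inhibitors of these proteases, 7 were tested, and in ECM against control Cst7, Cstb and Serpina3g rose and Serpinb1a fell (median 0.5). Cystatin F, encoded by Cst7, limits CTSC and other cathepsins in the endosomes of immune cells. Cst7 went from 0.166 ± 0.132 CPM in control to 1.82 ± 0.898 CPM in ECM (3.43 ± 0.61, adjusted p = 0.00226) and fell to 0.48 ± 0.195 CPM in treated ECM (-1.9 ± 0.53, adjusted p = 0.043, lost in 11 of 19 alternatives). Serpina3g, which can inhibit cathepsin B in lymphocytes, had its highest mean in treated ECM. It was 0.888 ± 0.742 CPM in control, 21.5 ± 7.02 CPM in ECM and 48.0 ± 18.9 CPM in 3 usable treated ECM libraries, 4.54 ± 0.55 higher on the log2 scale in ECM than in control (adjusted p = 0.000133) and 5.7 ± 0.58 higher in treated ECM than in control (adjusted p = 0.000112). The difference between treated ECM and ECM, 1.16 ± 0.48, was not called (adjusted p = 0.149). Serpina3g has near-identical copies in the mouse genome that can share reads.

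Cystatin B, an inhibitor in the cytosol, was higher in ECM (Cstb, 32.5 ± 13.1 CPM against 18 ± 3.82 CPM in control; 0.85 ± 0.25, adjusted p = 0.0482), a call lost in 14 of 19 alternatives. Serpinb1a, which inhibits neutrophil granule proteases, fell from 12.3 ± 3.58 to 5.12 ± 1.45 CPM (-1.26 ± 0.29, adjusted p = 0.0134). Cystatin C (Cst3), the abundant secreted cathepsin inhibitor of the brain, was at 876 ± 92.0, 1222 ± 293 and 1165 ± 111 CPM in control, ECM and treated ECM and was not called (0.48 ± 0.18 in ECM against control, adjusted p = 0.115). Cst6 and Serpinb6a were not called either. The median of the 7 in treated ECM against ECM was -0.07, and in treated ECM against control, where Serpina3g was the 1 called gene, it was 0.3.

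The other enzymes of the lysosome gave few calls. Of 34 hydrolases and their activators, 3 rose in ECM against control, Acp5 and Galns among them, and 0 fell, with a median of 0.14, a share near the 7.29% of all genes. DESeq2 called 6 higher and 0 lower there, and 8 were higher and 1 lower at an unadjusted p below 0.05. Acp5, an acid phosphatase of osteoclasts and macrophages, was at 0.363 ± 0.257, 2.51 ± 1.56 and 0.794 ± 0.257 CPM in control, ECM and treated ECM (2.76 ± 0.6 in ECM against control, adjusted p = 0.0092), with ECM libraries that overlapped control. Galns, a sulfatase, was at 6.32 ± 0.662 CPM in control and 10.7 ± 1.97 CPM in ECM (0.75 ± 0.2, adjusted p = 0.0312), a call lost in 11 of 19 alternatives, with an adjusted p of up to 0.105. Psap, the precursor of the saposins, at 1498 ± 177 CPM in control and 1778 ± 286 CPM in ECM, was not called (0.25 ± 0.15, adjusted p = 0.359), and nor was Ids. After treatment, 2 fell against ECM, Ppt1 among them, and Hexa and Pla2g15 rose (median -0.1). Over all tested genes, 5.67% were called lower and 3.03% higher there, so the share that fell was near that of all genes. Against control, 0 of the 34 were called in treated ECM by edgeR or by DESeq2, with 1 higher at an unadjusted p below 0.05.

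Of 20 genes of the lysosomal membrane and proton pump, 19 were tested, and 4 rose in ECM (Slc11a1, Cd68, Laptm5 and Lamp2), all of which fell after treatment. Slc11a1, a metal ion transporter of phagocyte vacuoles, was at 2.13 ± 0.347, 9.74 ± 1.82 and 3.62 ± 1.32 CPM in control, ECM and treated ECM (2.19 ± 0.3, adjusted p = 0.000247; -1.43 ± 0.29, adjusted p = 0.00988). Laptm5, a lysosomal protein of blood cells, was at 30.9 ± 3.83, 75.5 ± 2.26 and 38.0 ± 5.37 CPM (1.29 ± 0.14, adjusted p = 4.35e-05; -0.99 ± 0.14, adjusted p = 0.00161). Cd68, a lysosomal glycoprotein of macrophages and microglia, changed by 1.3 ± 0.23 and -1.06 ± 0.23, and Lamp2, a major protein of the lysosomal membrane in all cells, by 0.84 ± 0.19 and -1.03 ± 0.19. The pump subunits with the most reads, Atp6v1b2 (715 ± 95.6 CPM in control and 783 ± 86.9 CPM in ECM) and Atp6v1a (618 ± 21.2 and 677 ± 52.0 CPM), were not called. The medians of the 19 were 0.17 in ECM against control, -0.15 after treatment and 0.03 between treated ECM and control, with 0 called in the last by edgeR and by DESeq2 and 1 higher at an unadjusted p below 0.05.

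Among 11 genes of sorting and control of the lysosome, only Grn rose in ECM, a share near the 7.29% of all tested genes. The median was -0.14. Grn encodes progranulin, a lysosomal protein precursor that cathepsins cut into granulins. It went from 43.6 ± 10.2 CPM in control to 94.4 ± 21.6 CPM in ECM (1.11 ± 0.2, adjusted p = 0.00275) and was at 59.4 ± 4.62 CPM in treated ECM, a difference from ECM of -0.67 ± 0.2 that was not called (adjusted p = 0.0573). Sort1, a sorting receptor for progranulin, was at 507 ± 43.7 CPM in control and 482 ± 150 CPM in ECM, and Tmem106b, a lysosomal membrane protein, at 331 ± 79.0 and 301 ± 60.4 CPM; neither was called. In treated ECM against ECM and against control, 0 of the 11 were called by edgeR, with 1 higher and 1 lower at an unadjusted p below 0.05 in each and 1 lower by DESeq2 in the first. Their medians were -0.03 and 0.07.

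The substrates and partners of these proteases in antigen processing and granules included 10 that rose in ECM. Of 17 such genes, 16 were in the count table and the other is not analysed here. Mpo and Elane did not pass the filter on low counts. Of the 14 tested, 10 rose in ECM against control and 0 fell (median 2.09; 12 and 0 by DESeq2, and 13 and 0 at an unadjusted p below 0.05). After treatment, Gzma, Gzmb, Gzmk, Tlr7 and Tlr13 fell against ECM and H2-Eb1 rose (median -0.08), and 7 were still called higher than in control (median 1.58). Cd74, the invariant chain that CTSS cuts, was at 4.14 ± 1.58 CPM in control, 50.8 ± 11.8 CPM in ECM and 88.7 ± 36.1 CPM in treated ECM (3.61 ± 0.37 in ECM against control, adjusted p = 2.22e-05; 4.41 ± 0.38 in treated ECM against control, adjusted p = 1.65e-05). Its difference between treated ECM and ECM, 0.8 ± 0.33, was not called (adjusted p = 0.138), while Ctss fell in that comparison; whether the 2 genes differ there was not tested. H2-Eb1, an MHC class II chain that can share reads with other H2 genes, was at 1.56 ± 0.506, 7.03 ± 1.78 and 16.5 ± 6.2 CPM (1.23 ± 0.32 in treated ECM against ECM, adjusted p = 0.0315). That call was lost without ECM 1, without ECM 3 and without treated ECM 2, 3 or 4, each of which left 0 of these genes called higher than in ECM. The fall of Gzmk was lost in 5 of 19 alternatives, with an adjusted p of up to 0.0856: in the fit with a replicate block and without ECM 2 or treated ECM 1, 2 or 3.

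Granzymes, which CTSC activates, had nearly no reads in control. Gzmb had 2 reads over the control group, 69.4 ± 22.1 CPM in ECM and 13.3 ± 6.26 CPM in treated ECM. It was 2200-fold higher in ECM than in control, with a 95% counting interval of 609 to 18173 (adjusted p = 2.19e-07), and it fell by 2.39 ± 0.34 on the log2 scale after treatment (adjusted p = 0.00161). Gzma was at 0.0571 ± 0.076, 26.2 ± 14.2 and 7.07 ± 1.69 CPM (8.53 ± 0.61 in ECM against control, adjusted p = 1.08e-06), and Gzmk at 0.31 ± 0.378, 5.17 ± 2.9 and 0.751 ± 0.479 CPM (3.94 ± 0.74, adjusted p = 0.00311). Unc93b1, which carries the Toll-like receptors that cathepsins process, and H2-DMa were not called in ECM against control (adjusted p = 0.0718 and 0.0544).

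Markers of the cells a brain sample can hold moved with the cathepsins in part. The 7 monocyte and macrophage markers (Ly6c2, Ccr2, Fcgr4, Plac8, Chil3, Ms4a4c and Lyz2) rose in ECM, fell with treatment and stayed above control, all 7 each time. Their summed level was 8.23 to 9.76 CPM in control, 150 to 368 CPM in ECM and 36.9 to 74.8 CPM in treated ECM. The 5 T and NK cell markers did likewise, at 0 to 0.271, 21.9 to 43.6 and 3.83 to 12.5 CPM. Of 9 microglia markers, Aif1 rose in ECM and Fcrls and Sall1 fell (median -0.24), and the sum, 364 to 380 CPM in control, 270 to 398 CPM in ECM and 301 to 432 CPM in treated ECM, overlapped in all groups. Of the 5 endothelial markers, 3 rose in ECM and 2 fell with treatment, with sums of 135 to 177, 282 to 335 and 156 to 193 CPM. The part of each cell type in the cathepsin changes was not tested.

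**Figure D3:**
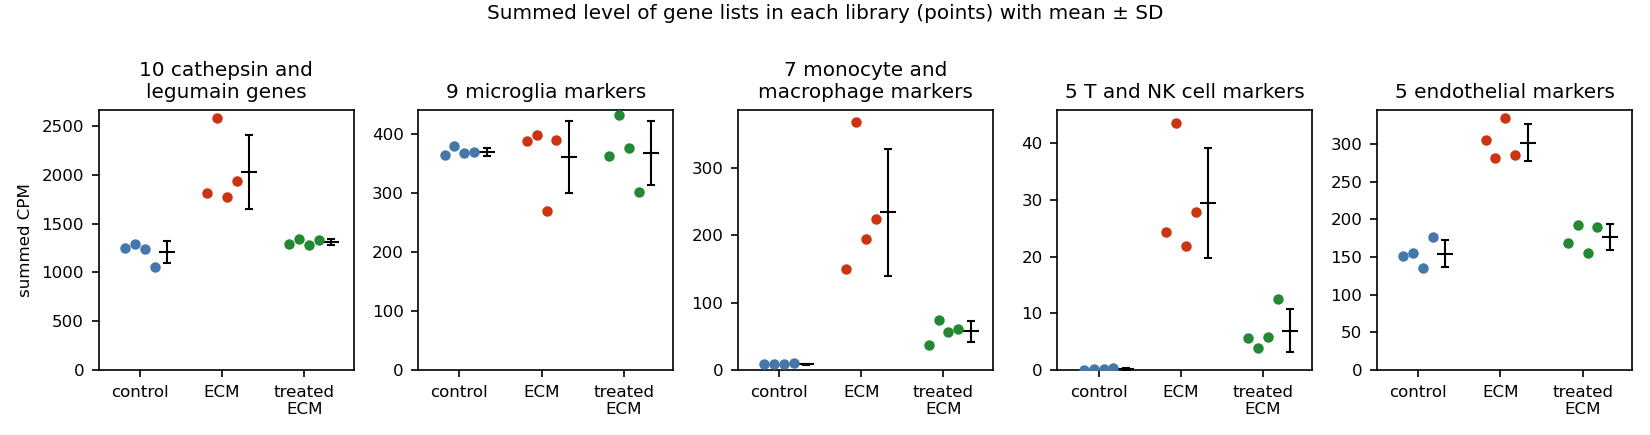
Summed CPM (vertical axes, each from 0) of the 10 genes and of 4 marker lists in each library, with points for libraries 1 to 4 from left to right and the bar for mean ± SD (n = 4). The 10 genes and the monocyte, T and NK cell and endothelial markers were highest in ECM, while the microglia markers overlapped in all groups.

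The other lists gave fewer calls. S100a8 and S100a9 were the 2 tested neutrophil markers and rose in ECM, with the sum of the 5 markers at 0.161 to 0.364 CPM in control, 2.06 to 5.69 CPM in ECM and 2.09 to 3.61 CPM in treated ECM. The 3 B cell markers were too low to test (0 to 0.381 CPM in ECM). By edgeR, 0 of 5 neuronal, 0 of 5 cerebellar and 0 of 4 choroid plexus markers were called in any comparison, while DESeq2 called 1 choroid plexus marker lower in ECM. At an unadjusted p below 0.05, 1 choroid plexus marker was lower in ECM and 1 higher after treatment, and 1 neuronal marker was lower after treatment. Of the 5 astrocyte markers, Gfap rose in ECM and fell with treatment, and of the 5 oligodendrocyte markers Mobp rose in ECM. The red blood cell markers Hbb-bs and Hba-a1 fell in ECM and rose with treatment, with the 3 markers summing to 10.6 to 42.6 CPM in control, 0 to 0.686 CPM in ECM and 12.3 to 76.0 CPM in treated ECM.

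For 5 of the genes that rose in ECM, the other tested gene with the most similar profile was sought, by the smallest mean absolute distance between log2(CPM + 0.5) values centred over the 12 libraries, among 13168 genes. Ctsl was nearest to Ctso (distance 0.085), Lgmn to Arrdc4 (0.0973), Ctsc to Lcp2 (0.132), Ctsh to Mvp (0.136) and Ctss to Cd53 (0.153). Lcp2, an adaptor protein of blood cells, was at 2.72, 15.3 and 6.21 CPM in control, ECM and treated ECM, beside 10.6, 49.9 and 20.8 CPM for Ctsc. Cd53, a tetraspanin of leukocytes, was at 8.56, 37.1 and 10.1 CPM. The libraries behind these profiles are the same 12, so the distances describe likeness in these libraries alone.

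The authors' deposited tables are labelled as listing genes past a log2 fold change of 1 with a p below 0.05. In that for ECM against control, 5 of the 10 genes were present. Their log2 fold changes were 2.23 for Ctss, 2.23 for Ctsc, 6.71 for Ctse, 1.29 for Ctsh and 1.17 for Ctsz. In the authors' deposited table for treated ECM against ECM there were 3, Ctss (-1.72), Ctsc (-1.26) and Ctse (-4.34), and in the authors' deposited table for treated ECM against control 0. Ctsl and Lgmn, whose changes were under 2-fold, were in none of them.

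By GENCODE M21 on mm10, 2 of the genes share chromosome 2 (Ctsa at chr2:164832873-164841032 and Ctsz at chr2:174427493-174439039) and 2 share chromosome 7 (Ctsc at chr7:88278085-88310888 and Ctsd at chr7:142375911-142388038). Ctss lies at chr3:95526786-95556403, Lgmn at chr12:102394084-102439813, Ctsb at chr14:63122462-63145923, Ctsl at chr13:64359337-64370890, Ctsh at chr9:90054152-90076089 and Ctse at chr1:131638306-131675505. Counts are per gene, so the values cover all exons of each gene without separating transcripts.

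**Figure D4:**
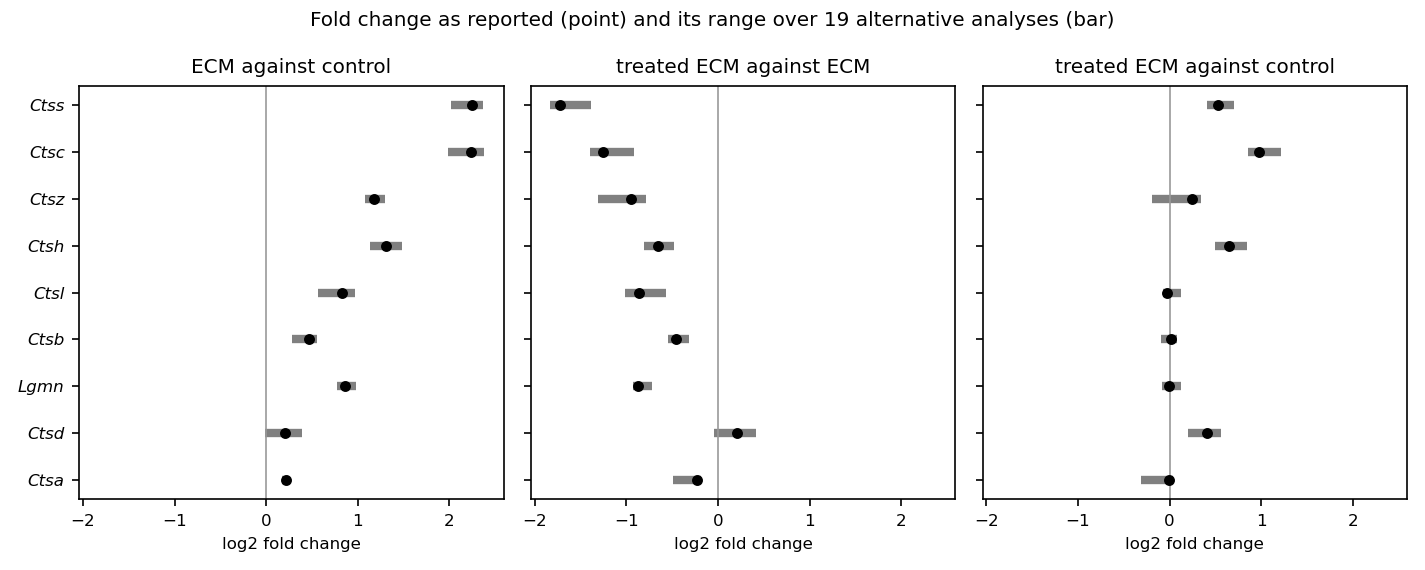
Log2 fold change (horizontal axis) of 9 of the genes as reported (points) and its lowest and highest value over 19 alternative analyses (bars), by comparison; Ctse, fitted from few reads, is left out. The bars of Ctss run from 2.02 to 2.37 in ECM against control and those of Ctsd reach both sides of 0 there.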

How the data were processed

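Per the labels' protocols, brains went into RNAlater, Trizol was used to extract RNA, and a NEBNext Ultra kit to build libraries. The submitters' processing notes name Trimmomatic, FastQC, STAR, HTSeq and mm10. Their versions, and the annotation used, were not given in the sources used here. Values were deposited by the authors as read counts per gene, unscaled. The authors' deposited comparison tables hold log2 fold changes, p-values, a normalized signal and FPKM values, per the file headers. The log2 fold changes are quoted where named, and signal and FPKM were not used in tests. In 2212 genes with names of 8 or more characters, the deposited counts were displaced by the name and were moved back. The values of treated ECM 4 for them differed from the authors' tables in 109 of 118 values, against 0 elsewhere, so these genes were fitted with 11 libraries. Of the 10 genes described, none was displaced. Another 43 names were unusable and left out. GENCODE M21 matched 99.7% of usable symbols. Strand-specific counting is not stated, so sense and antisense reads cannot be told apart.

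Counts were tested in 1 edgeR quasi-likelihood fit (edgeR 4.0.16, R 4.3.3) with TMM scaling, filterByExpr and a mean per group, and p-values were adjusted by Benjamini-Hochberg within each comparison. The script was tested on simulated data. Alternatives were DESeq2 1.42.0, RLE scaling, no filter, only the 2 groups compared, a replicate block, a per-library GC offset (lowess span 0.3), leaving out control 4, ECM 2 and ECM 3, and leaving out each library in turn. Tables were built with pandas 2.3.3 and numpy 2.4.6 in Python 3.11.15, and plots with matplotlib 3.10.9. The 10 genes, the 6 lists of related genes and the 12 marker lists were chosen with earlier results of these data known. Named are the 10 genes, all tested genes of the other cathepsins and inhibitors, of each other list up to 4 called genes with the largest change in ECM against control and up to 2 uncalled ones with the highest level, and the nearest gene in profile. Some genes of this rule are left out of the text. Ppt1, Hexa, Pla2g15, Tlr7, Tlr13, H2-Eb1 and called markers are named beside small counts after their values were seen. No 2 libraries agreed within sampling noise (lowest chi-square per degree of freedom 9.06).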

Additional observations from a re-analysis of the deposited data

How the results depend on the processing

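Depth limits Ctse, Ctsw, Cst7 and Acp5, whose control levels rest on few reads. Over the settings other than leaving out 1 library, 6 to 8 of the 10 genes were called higher in ECM against control and 6 to 8 lower in treated ECM against ECM, and leaving out 1 library gave 6 to 7 and 5 to 6. In treated ECM against control, where 0 were called, 1 was called higher by DESeq2, 1 with the GC offset and 2 without control 4, ECM 2 and ECM 3, and 0 to 1 when 1 library was left out (1 without ECM 2 or without treated ECM 1). The cause was not tested. Some list counts moved by over 1.5 times: in ECM against control, hydrolases called higher went from 3 to between 1 and 7, hydrolases called lower from 0 to at most 3 and other cathepsins called higher from 2 to 1; in treated ECM against ECM, hydrolases called lower went from 2 to between 1 and 6, those called higher from 2 to 1, membrane genes called lower from 4 to at most 7, other cathepsins called lower from 1 to between 0 and 2, and inhibitors called lower from 1 to 0. Over all genes, the 3 comparisons had 1489, 1270 and 295 calls, against 2711, 2262 and 470 without the 3 libraries and 2374, 2226 and 344 with the GC offset.

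The replicate numbers were not taken to pair the libraries. Deviations of same-numbered libraries correlated between -0.726 and 0.357, above 0.1 in 4 of 12 pairs, so the GC offset was not run together with the block. The differently numbered control 4 and ECM 3, both among the libraries that stood apart, reached 0.79. Such differences between libraries could hide a pairing, so these correlations cannot exclude one. With the replicate block, 7 of the 10 genes rose in ECM against control, 6 fell in treated ECM against ECM and 0 were called in treated ECM against control, as without it, while the calls of Ctso, Cstb and Cst7 (the last in treated ECM against ECM) were not made and the calls over all genes were 997, 546 and 220.

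Values that changed sign were all uncalled in the fit reported. When 1 library was left out, in ECM against control Ctsd ranged from -0.01 (without control 4 or ECM 4) to 0.39, Ctsf from -0.06 to 0.34, Cst6 from -0.07 to 0.21, Sort1 from -0.17 to 0.13 and Tmem106b from -0.23 to 0.04. In treated ECM against ECM, Ctsf ranged from -0.01 to 0.39 and Cst3 from -0.21 to 0.05. In treated ECM against control, the ranges were -0.05 to 0.04 for Ctsa, -0.1 to 0.08 for Ctsb, -0.07 to 0.01 for Ctsl, -0.08 to 0.11 for Lgmn, -0.12 to 0.26 for Ctsk, -0.09 to 0.01 for Ctso and -0.16 to 0.08 for Serpinb6a. Without control 4, ECM 2 and ECM 3 together, ECM against control gave -0.09 for Cst6 and 0.11 for Sort1, treated ECM against ECM gave -0.04 for Ctsd and -0.02 for Ctsf, and treated ECM against control gave -0.09 for Ctsb, 0.02 for Ctsl, 0.12 for Lgmn, -0.05 for Ctsk, 0.01 for Ctso and 0.08 for Serpinb6a. The GC offset gave -0.01 for Ctsf in treated ECM against ECM, and -0.02 for Ctsb, 0.12 for Ctsl, -0.19 for Ctsz and 0.19 for Ctso in treated ECM against control. The cause was not tested for any of them.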
